A study of Mus musculus with 36 samples.

Results

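Imprinted genes are genes of which a cell uses mainly the copy inherited from the mother or mainly the copy inherited from the father. Their RNA was followed here in mouse melanomas and fibroblasts with and without the macroH2A histones. The 44 members came from a list of known mouse imprinted genes, of 54115 genes with a transcript in the data. The rule that picks them uses imprinting and not a measured level, although it was written with earlier results of these data known. They lie in 21 domains by chromosomal position. The paternal copy is the active copy for 21 of them, the maternal copy for 12, and the maternal copy in some tissues for 9. For Gnas and Inpp5f the active copy depends on the transcript. Proteins are made from 38 members, and 6 are long non-coding RNAs.

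RNA-seq was read from 36 libraries of wild-type (WT) mice and of mice constitutively lacking both macroH2A genes, H2afy and H2afy2 (double knockout, dKO). There were 6 WT and 6 dKO bulk melanomas in 3 batches, 4 WT and 4 dKO samples of CD8+ T cells sorted from tumours, and 4 WT and 4 dKO samples of cancer-associated fibroblasts (CAFs) sorted from tumours on CD140a. The sexes of the bulk melanomas were unbalanced, with 4 females and 2 males in WT and 1 female and 5 males in dKO. Each genotype of the CD8+ T cells and of the CAFs had 2 females and 2 males. The remaining 8 libraries were immortalized dermal fibroblasts (iDFs), 2 of each genotype at 0 min and 2 at 30 min of serum. All tumour-bearing mice of both genotypes carried tumour alleles that include Braf CA/CA and Tyr-CreERT2. Tumours were started with 4-hydroxytamoxifen on dorsal skin at 7 to 11 weeks of age (9 for the T cell sort, 10 for the CAF sort) and taken at day 50. Cre acts in the melanocyte lineage, so the tumour alleles are recombined in the melanoma cells, whereas macroH2A is missing from every cell of a dKO mouse. The strain background was mixed. The iDFs came from skin without tumours, were held for 24 h in 0.5% serum and were then given 10% serum. All iDF libraries are labelled male. Nothing states that the 2 iDF replicates of a group are separate lines or mice, so their p-values measure only the spread between these libraries.

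Imprinted genes usually sit in clusters, and each cluster has a control region that is DNA-methylated on a single parental copy. Reading of the cluster then differs between the copies, often through a long non-coding RNA that silences its neighbours, or through a blocked enhancer, as at Igf2 and H19. Many members act on growth. Igf2 is a growth factor that the Igf2r receptor clears, Grb10 dampens insulin receptor signalling, and Cdkn1c is a cell cycle inhibitor. Several are abundant in embryonic mesenchyme and decline after birth. MacroH2A has been found on silent copies of imprinted genes and on the inactive X chromosome. The reads here carry no parental information, so a level is the sum of both copies.

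The libraries held 17526681 to 85432438 estimated counts in genes (median 26158186). Levels are given in TPM, which scales for transcript length and library total, or in CPM, which scales for library total alone. Markers matched the labelled cells: 9 fibroblast markers summed to 82600 to 128000 CPM in the CAFs and 27000 to 31400 CPM in the iDFs, and 7 T cell markers to 4590 to 7510 CPM in the CD8+ T cells. Markers of other cells were also read in the CD8+ T cells, with 490 to 3330 CPM for the fibroblast list, of which T cells also express Thy1, and 73.9 to 884 CPM for 7 macrophage markers. In the CAFs, 6 endothelial markers summed to 139 to 399 CPM, against 188 to 357 CPM in bulk tumours. There 6 Schwann and neural crest markers summed to 235 to 361 CPM, against 1410 to 2620 CPM in bulk tumours. The part of such cells in the comparisons of sources was not tested. In the dKO, reads of the targeted genes remained. H2afy was at 61 to 65.2 CPM in the dKO iDFs at 0 min against 91.8 to 94.3 CPM in WT, and H2afy2 was at 10.7 to 14.4 CPM in the dKO CAFs against 17.1 to 24.9 CPM in WT. H2afy overlapped between the genotypes in CD8+ T cells (72.1 to 93.9 CPM in dKO, 72.8 to 96.5 CPM in WT). It also did in CAFs (48.7 to 55.3 CPM in dKO, 51.8 to 60.7 CPM in WT). Which stretch of each gene was deleted is not stated, and these reads therefore do not check the deletion. In bulk tumours, fewer cells of a type and less RNA per cell cannot be told apart.

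In WT libraries fewer imprinted genes passed 1 TPM in CD8+ T cells than in CAFs, bulk tumours or iDFs. Their share was above that of all genes in every source. All genes here are those of every annotated type, whereas 38 of the 44 members encode proteins. The share among protein-coding genes was not counted. At a mean of 1 TPM or more stood 36 of the 44 members in CAFs (81.8%), 35 in bulk tumours (79.5%), 33 in iDFs at 0 min (75%) and 20 in CD8+ T cells (45.5%). Of all genes, 27.9%, 30.4%, 25.4% and 26.5% stood at that level in the same libraries. Summed over the members, the level was 3300 TPM in CAFs, 3366 TPM in iDFs, 1209 TPM in bulk tumours and 435.5 TPM in CD8+ T cells. A level of 100 TPM or more was reached by 6 members in CAFs, 9 in iDFs, 2 in bulk tumours and 0 in CD8+ T cells. Calcr, the calcitonin receptor, and Magel2, a MAGE family protein, were at means of at most 0.0225 TPM in all WT groups.

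**Figure D1:**
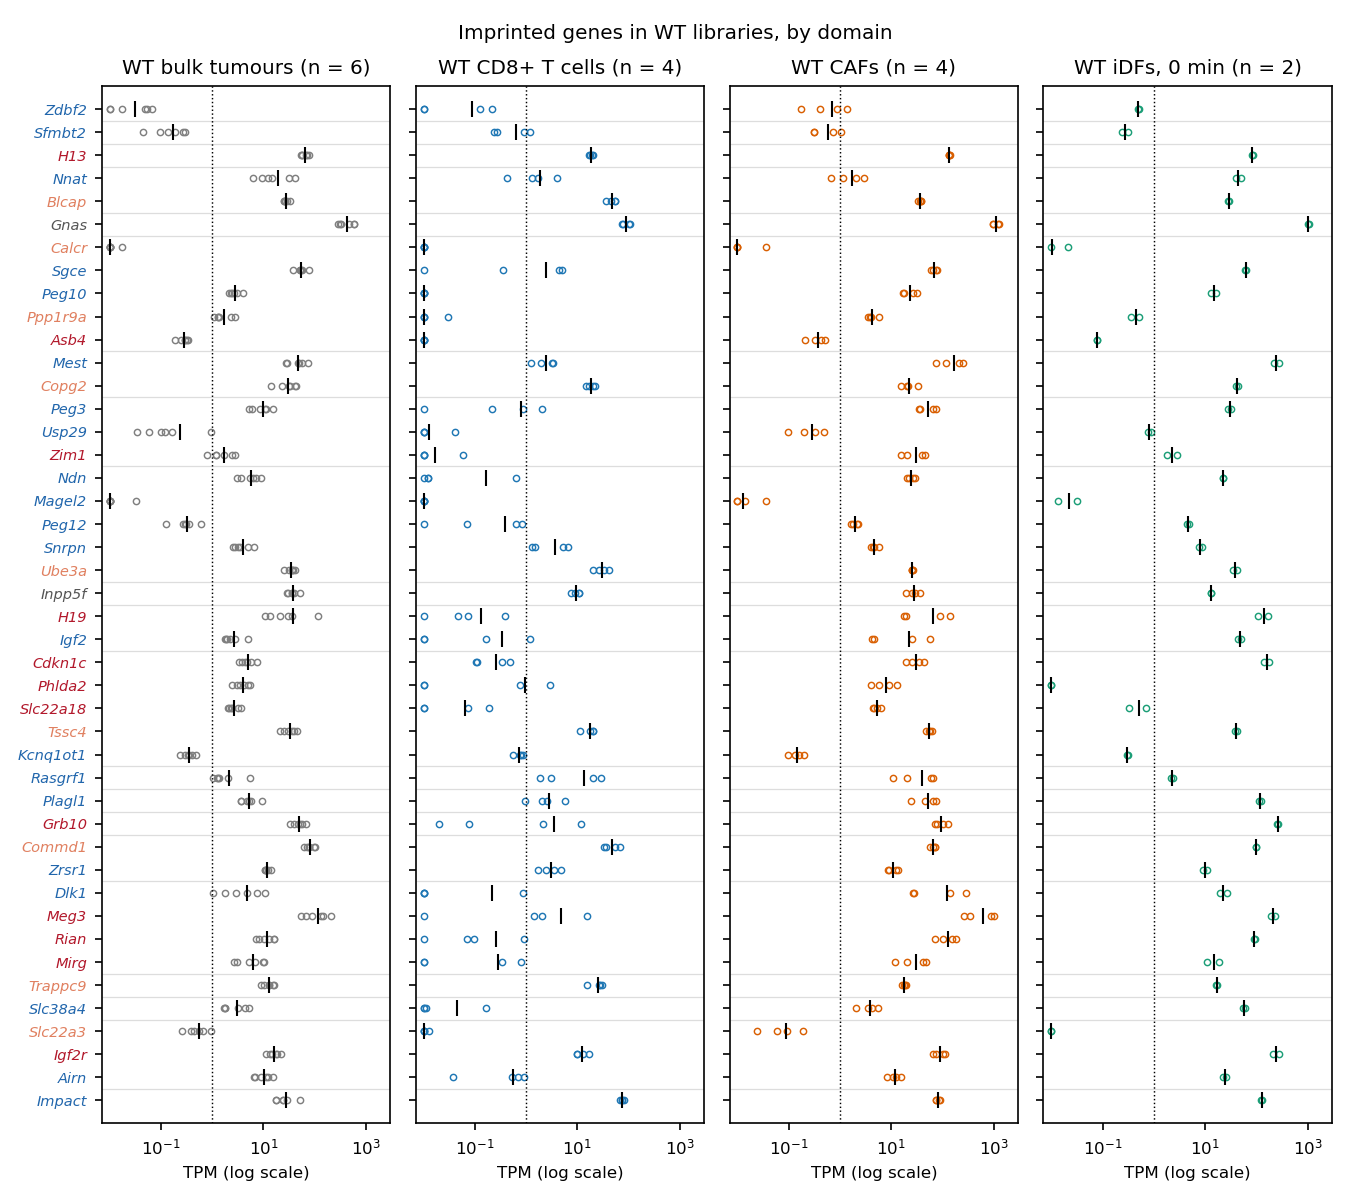
Level of the 44 imprinted genes in WT libraries, in TPM on a log axis, with a panel for each source. Open circles are libraries, bars are means, values under 0.01 TPM are drawn at 0.01, the dotted line is at 1 TPM, and the colour of a gene name gives the active copy (blue paternal, red maternal, orange maternal in some tissues, grey transcript dependent). Gnas leads in every source, and fewer members pass 1 TPM in CD8+ T cells (20) than in CAFs (36).

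Gnas, which encodes the stimulatory G protein alpha subunit, was the most abundant member in all 4 sources. Its WT level was 981, 958, 1256 and 1232 TPM in the 4 CAF libraries and 1024 and 1047 TPM in iDFs at 0 min. Bulk tumours ran from 280 to 580 TPM with a median of 403 TPM, and the CD8+ T cell libraries stood at 107, 101, 77.8 and 75.5 TPM. The fibroblast libraries thus lay above all bulk tumours, which lay above all T cell libraries. Meg3, a maternally read long non-coding RNA, was second in CAFs at 264, 352, 878 and 1013 TPM. It was at 195 and 229 TPM in iDFs, at 55.3 to 208 TPM (median 111) in bulk tumours and at 15.7, 0, 1.44 and 2.08 TPM in CD8+ T cells. The fibroblast collagen gene Col1a1 moved with Meg3 there, at 540, 2.08, 241 and 348 CPM in the same WT libraries in that order, and its part in these levels was not tested.

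Mest, a hydrolase-like protein of mesoderm read from the paternal copy, was at 73.7, 116, 215 and 257 TPM in WT CAFs and at 220 and 274 TPM in iDFs. Rian, which hosts C/D box snoRNAs, was at 70.2, 104, 184 and 154 TPM in CAFs and at 93.1 and 91 TPM in iDFs. For Meg3, Mest and Rian the first 2 CAF libraries, from males, were the lower ones. Among growth regulators, Grb10 stood at 250 and 268 TPM in iDFs against 71.9 to 128 TPM in CAFs. Igf2r stood at 272 and 211 TPM against 65.7 to 114 TPM.

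The other members among the 5 most abundant of a source encode transport, membrane and regulatory proteins. H13, signal peptide peptidase, was at 137, 142, 132 and 136 TPM in CAFs, 81.5 and 86.1 TPM in iDFs, 53.9 to 76.6 TPM (median 63.3) in bulk tumours and 16.8 to 20.0 TPM in CD8+ T cells. Commd1, a copper transport protein, was at 67.3, 35.8, 33.1 and 53.7 TPM in CD8+ T cells and at 62.8 to 102 TPM (median 76) in bulk tumours. The ubiquitin ligase Ube3a was at 26.6, 33.1, 41.5 and 20.2 TPM in CD8+ T cells, a range that held the CAFs (25.4 to 26.4 TPM). Blcap, the host of Nnat, was at 35.7, 46.5, 53.9 and 54.4 TPM in CD8+ T cells and at 28.6 and 29.4 TPM in iDFs. Impact, a regulator of the GCN2 kinase, was at 79.7, 75.9, 74.3 and 67.7 TPM in CD8+ T cells, 74.7 to 91.3 TPM in CAFs and 125 and 128 TPM in iDFs. Sgce, epsilon-sarcoglycan, was at 37 to 77.2 TPM (median 53) in bulk tumours, 59.1 to 78.3 TPM in CAFs and 0 to 5.14 TPM in CD8+ T cells.

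The sources were compared among WT libraries with edgeR's quasi-likelihood test over all genes, with sex as a term. That term is a single sex effect shared by all sources, and the iDFs were all male. A sex difference confined to CAFs is therefore not fully adjusted for. Calls needed a log2 difference above 0.75 in size and a p, adjusted by Benjamini-Hochberg, under 0.05. CAF and iDF libraries shared a protocol, whereas bulk tumours and CD8+ T cells were prepared with other kits, so for these source and kit cannot be told apart. Against CD8+ T cells, 30 of 42 members tested were higher in CAFs and 4 lower (81%), where 70.2% of all genes were called and 37.8% were higher. All 12 maternally read members were among the higher ones. The 4 lower members were Kcnq1ot1 (log2 difference −2.74 ± 0.23 SE), Impact (−1.17 ± 0.15), Blcap (−0.96 ± 0.15) and Trappc9 (−0.76 ± 0.17). The median over the members was 4.19 on the log2 scale against 0.189 over all genes.

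Against bulk tumours, 21 of 42 members were higher in CAFs and 3 lower (57.1%), with 35.9% of all genes called and 14.5% higher. Dlk1, a Delta-like protein of preadipocytes, differed by 4.85 ± 0.66 on the log2 scale, Zim1 by 3.59 ± 0.35, Rasgrf1 by 3.37 ± 0.71 and Rian by 3.26 ± 0.58. Lower in CAFs were Nnat (−3.63 ± 0.60), the transporter Slc22a3 (−2.57 ± 0.66) and Kcnq1ot1 (−1.25 ± 0.20). Against iDFs at 0 min, 12 of 42 members were higher in CAFs and 6 lower (42.9%), with 32.5% of all genes called and 19.8% higher. The Ras exchange factor Rasgrf1 differed by 4.32 ± 1.1, Slc22a18 by 3.98 ± 0.81, Zim1 by 3.70 ± 0.58 and the actin-binding protein Ppp1r9a by 3.33 ± 0.68. Phlda2 and Slc22a3 were also called higher in CAFs, and both were at 0 counts in the 2 WT iDF libraries at 0 min. Slc22a3 was low in the WT CAFs as well, at 0.0482 to 0.351 CPM, and too low to test for genotype there. Lower in CAFs were Nnat (−4.27 ± 0.74), the amino acid transporter Slc38a4 (−3.56 ± 0.57), Cdkn1c (−2.50 ± 0.37), Plagl1 (−1.86 ± 0.50), Igf2r (−1.15 ± 0.23) and Kcnq1ot1 (−0.83 ± 0.27). The CAF libraries enter all 3 comparisons.

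In bulk tumours, dKO and WT did not differ detectably in any imprinted gene. Of 42 members tested with batch and sex as terms, 0 were called, where 0.0442% of all genes (8 genes) were. At an unadjusted p under 0.05 stood 1 higher member, Peg10, and 1 lower, Nnat (7.52% of all genes), and DESeq2 called 1, Nnat. Nnat, neuronatin, ran from 4.01 to 30.3 CPM (median 7.48) in WT and from 4.90 to 10.6 CPM (median 6.56) in dKO, with a log2 fold change of −1.23 ± 0.31 (edgeR adjusted p = 0.367). Within the batches its log2 ratio of means was −0.86, −1.28 and 0.25. In batch 3 all WT tumours were female and all dKO tumours male. The last ratio therefore cannot tell genotype from sex. In batches 1 and 2 Nnat was highest in a male WT tumour, at 20.5 and 30.3 CPM. The WT female of each was at 8.6 and 4.01 CPM. The dKO tumours stood at 5.5 and 10.6 CPM in batch 1, and at 4.90 and 9.20 CPM in batch 2, both male. Igf2 ran from 3.13 to 9.13 CPM (median 4.72) in WT and from 2.75 to 8.49 CPM (median 5.25) in dKO. H19 ran from 19.7 to 132 CPM (median 40) in WT and from 10.6 to 70.4 CPM (median 30.4) in dKO. Ranges of both genotypes overlapped for all 3 genes. The median log2 fold change over the members was 0.134, against 0.019 over all genes.

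In CD8+ T cells, 0 of 23 members tested were called, where 0.495% of all genes were. At an unadjusted p under 0.05 stood 2 higher and 2 lower members (10.2% of all genes), and DESeq2 called 1, Rasgrf1. H13 was at 27.3, 27.6, 24.3 and 27.7 CPM in WT and at 56.1, 38.1, 46.3 and 38.3 CPM in dKO, with no overlap (log2 fold change 0.74 ± 0.18, edgeR adjusted p = 0.163). Copg2, a coatomer subunit, also had no overlap, with 38.7 to 46.2 CPM in WT and 25.5 to 33.8 CPM in dKO. Groups did not overlap for 7.05% of all genes. Rasgrf1 was at 11.7 and 2.55 CPM in the female and 66.2 and 55.5 CPM in the male WT libraries. In dKO it was at 3.98 and 1.45 CPM in females and at 0.877 and 0.249 CPM in males. All dKO libraries but a female were below all WT libraries (log2 fold change −3.96 ± 1.38, edgeR adjusted p = 0.352).

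**Figure D2:**
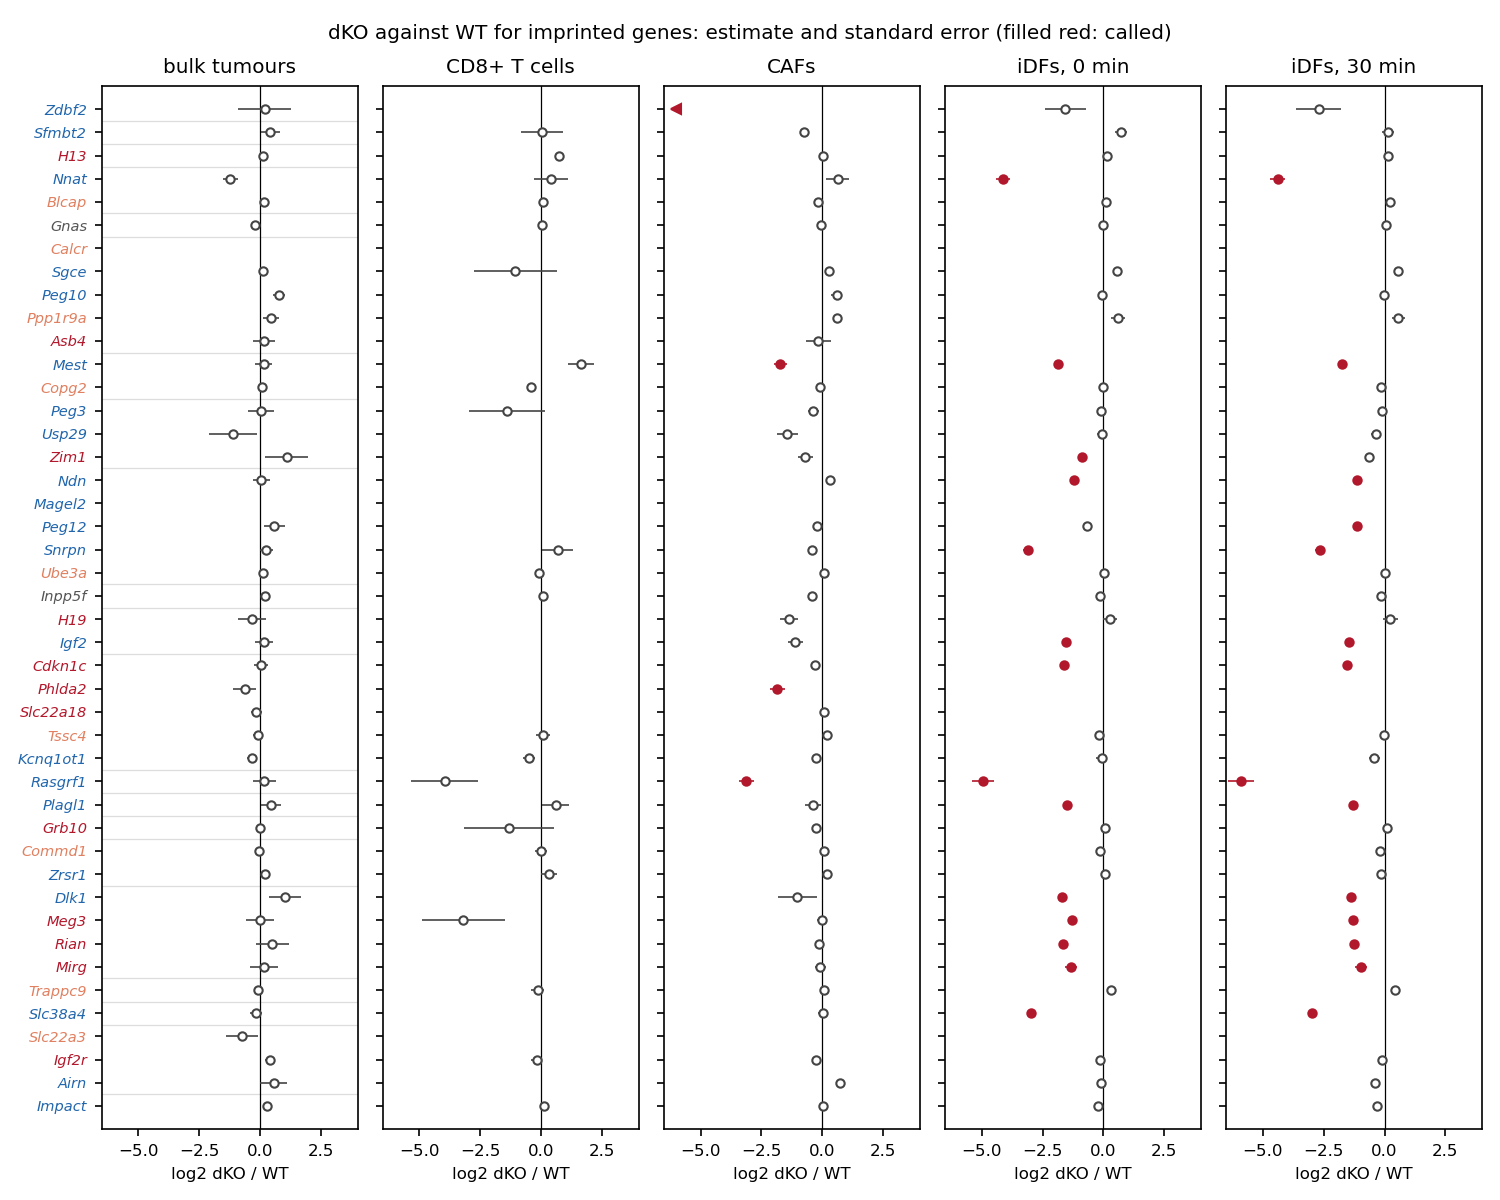
Log2 fold change of dKO against WT for each imprinted gene in bulk tumours, CD8+ T cells, CAFs and iDFs at 0 and 30 min, grouped by domain. Points are fitted values, bars their SE, filled red points are called, gaps are genes not tested, and the triangle at the left edge is Zdbf2 in CAFs, which had 0 counts in all dKO libraries. All called points lie on the lower side: 4 in CAFs, 14 in iDFs at 0 min and 14 at 30 min.

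In CAFs, 4 imprinted genes were lower in dKO and 0 were higher, of 41 tested with sex as a term (9.76%). Of all genes, 5.48% were called and 4.03% were lower. The 4 were Rasgrf1, Zdbf2 and Mest, which are read from the paternal copy, and Phlda2, which is read from the maternal copy. Rasgrf1 was at 102 and 107 CPM in the male and 25.6 and 36.7 CPM in the female WT libraries. In dKO it was at 12.3 and 12.3 CPM in males and at 1.55 and 5.31 CPM in females (log2 fold change −3.12 ± 0.30, edgeR adjusted p = 0.0014). Every dKO library was below every WT library. Zdbf2, which encodes a zinc-finger protein, was at 4.34, 6.70, 1.32 and 2.78 CPM in WT (36 to 139 counts) and had 0 counts in all 4 dKO libraries. Against a floor of 3 counts per library it was at least 32.8-fold lower in dKO (edgeR adjusted p = 0.0036). Rasgrf1 and Zdbf2 were 2 of 3 members whose groups did not overlap. Airn, 4.38 to 7.41 CPM in WT and 7.86 to 11.8 CPM in dKO, was the third, and 14% of all genes had no overlap.

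Mest was at 105 and 161 CPM in the male and 308 and 341 CPM in the female WT CAFs. The dKO libraries held 29.6 and 41 CPM in males and 149 and 75.9 CPM in females (log2 fold change −1.72 ± 0.25, edgeR adjusted p = 0.00785). The groups overlapped across the sexes and did not within either sex, for which the share of all genes was not counted. Phlda2, which limits placental growth, was at 2.93, 2.51, 0.919 and 1.55 CPM in WT and at 1.15, 0.931, 0.245 and 0.175 CPM in dKO (log2 fold change −1.85 ± 0.32, edgeR adjusted p = 0.0128). Without the term for sex, Zdbf2 alone of the 4 was called. In females alone, where 2.34% of all genes were called, Zdbf2, Rasgrf1, Phlda2 and Dlk1 were lower. In males alone, where 1.79% were, Zdbf2 and Rasgrf1 were lower and Peg10 was higher (1.12 ± 0.15). Mest missed the threshold in each (adjusted p = 0.0897 in females and 0.0591 in males).

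Near the thresholds in CAFs, Airn (log2 fold change 0.71 ± 0.11), Ppp1r9a (0.62 ± 0.12) and Sgce (0.29 ± 0.075) were higher and Sfmbt2 (−0.74 ± 0.17) lower at an adjusted p under 0.05, with changes too small for a call. Airn overlaps Igf2r on the other strand, and the strand setting of the counting is not stated, so reads of the 2 genes cannot be told apart there. H19 (−1.38 ± 0.38, adjusted p = 0.0622), Igf2 (−1.11 ± 0.31, 0.0666) and Usp29 (−1.43 ± 0.43, 0.0748) missed the threshold in edgeR's test. DESeq2 called 7 members, with H19, Igf2 and Sfmbt2 added. The other 30 members tested, the Dlk1–Meg3 RNAs, Gnas and Grb10 among them, had no adjusted p under 0.05. Melanocyte markers moved with genotype in these sorts: all 7 were detected, and their sum was 455 to 653 CPM in WT and 113 to 425 CPM in dKO. Keratinocyte markers summed to 39.1 to 70.7 CPM in WT and 8.56 to 35.2 CPM in dKO. Their part in the results was not tested.

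In iDFs, imprinted genes of several domains were lower in dKO. At 0 min, 14 of 38 members tested were lower in dKO and 0 were higher (36.8%), where 9.04% of all genes were called and 5.11% were lower. At 30 min of serum it was again 14 lower and 0 higher of 38, with 8.96% of all genes called and 5.08% lower. Called at both times were 13 members, with Zim1 (−0.87 ± 0.16 at 0 min) called at 0 min and Peg12 (−1.15 ± 0.15 at 30 min) at 30 min. The median log2 fold change over the members was −0.149 at 0 min and −0.333 at 30 min, and over all genes −0.00136 and −0.00715. By active copy, the called members at 0 min were 9 of 20 paternal, 5 of 9 maternal, 0 of 7 maternal in some tissues and 0 of 2 transcript dependent. Among cell type markers, Acta2, the smooth muscle actin of contractile fibroblasts, was at 723 and 609 CPM in WT and at 1760 and 1280 CPM in dKO at 0 min. Of the other 5 pericyte and smooth muscle markers, Cspg4 was at 180 and 161 CPM against 181 and 153 CPM and Notch3 at 68.9 and 63.9 CPM against 54.4 and 51.5 CPM, while Myh11, Rgs5 and Des were at 5.23 CPM or less. The fibroblast markers Dcn (239 and 275 CPM against 56.7 and 98.7 CPM), Lum (18.7 and 20.7 CPM against 5 and 5.87 CPM) and Fap (33.3 and 34.4 CPM against 10.7 and 8.67 CPM) stood lower in dKO. So did Col3a1 (5630 and 6310 CPM against 3830 and 4430 CPM) and Pdgfra (264 and 292 CPM against 198 and 240 CPM). Thy1 (331 and 290 CPM against 536 and 450 CPM) and Pdgfrb (632 and 588 CPM against 670 and 636 CPM) stood higher. Col1a1 was at 11600 and 12200 CPM against 11500 and 11200 CPM, and Col1a2 at 10800 and 11400 CPM against 10900 and 11400 CPM. The part of these markers in the results was not tested.

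**Figure D3:**
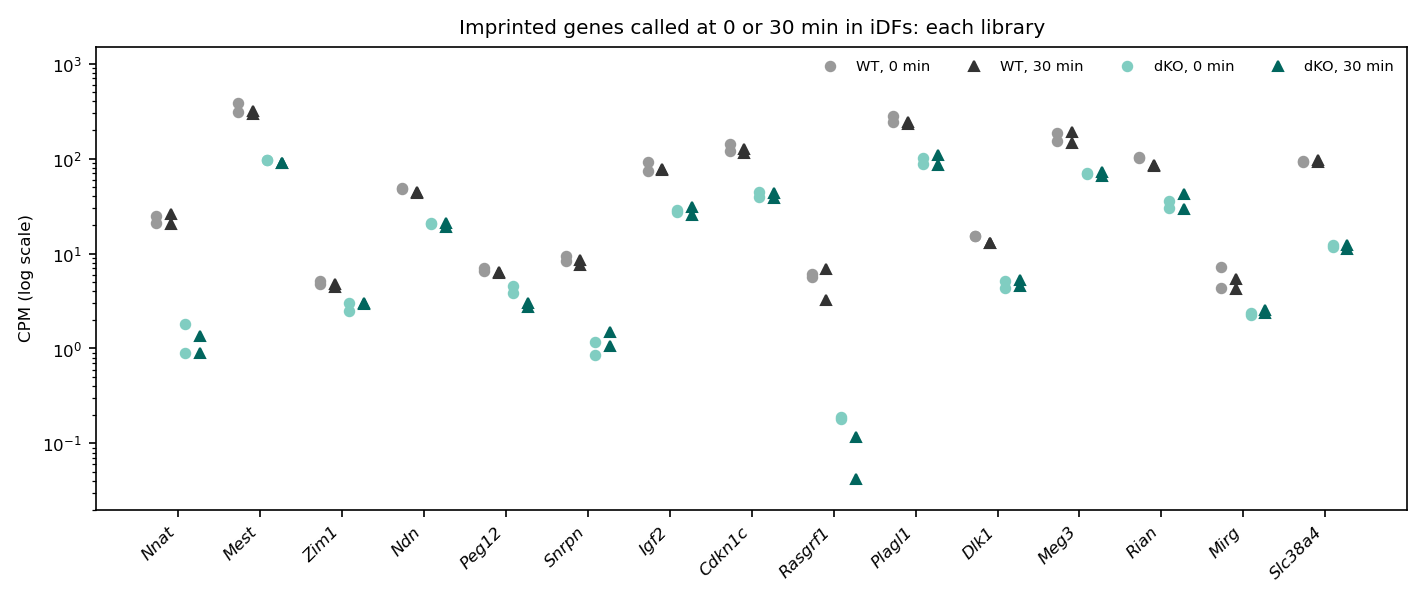
Level of the 15 imprinted genes called at 0 or 30 min in the 8 iDF libraries, in CPM on a log axis, by genotype and minutes of serum. Each point is a library. For each gene shown every dKO library lies below every WT library, and both serum times look alike within a genotype. With 2 libraries per group, 34.8% of all genes were lower in dKO without overlap at 0 min and 33.6% at 30 min.

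The greatest falls were in 4 paternally read genes of separate domains. Rasgrf1 was at 6.05 and 5.70 CPM in WT and at 0.191 and 0.18 CPM in dKO at 0 min (log2 fold change −4.95 ± 0.46, edgeR adjusted p = 0.0001). At 30 min its WT libraries held 3.25 and 6.96 CPM, and the dKO libraries held 3 and 1 counts. Nnat was at 20.8 and 25.1 CPM in WT and at 0.892 and 1.80 CPM in dKO at 0 min (−4.11 ± 0.29), and at 20.3 and 26.4 CPM against 0.90 and 1.35 CPM at 30 min. Blcap, whose intron holds Nnat, stood at 0.12 ± 0.080 on the log2 scale, with adjusted p = 0.278. As the strand setting is not stated, reads of Nnat and Blcap, of Mest and Copg2 where they overlap, and of Zrsr1 and Commd1 may be shared. Snrpn, a spliceosomal protein, was at 8.25 and 9.42 CPM in WT and at 1.18 and 0.864 CPM in dKO at 0 min (−3.10 ± 0.21). At 30 min Snrpn was at 8.50 and 7.64 CPM against 1.49 and 1.06 CPM. Slc38a4 was at 91.7 and 94.9 CPM in WT and at 12.3 and 11.7 CPM in dKO at 0 min (−2.96 ± 0.063, adjusted p = 3.0e-08). Its 30 min values were 91.8 and 96.7 CPM against 12.3 and 11.3 CPM.

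In the Snrpn domain the members divided. Ndn, the MAGE protein necdin, was at 48.8 and 47.6 CPM in WT and at 20.3 and 21.1 CPM in dKO at 0 min (−1.22 ± 0.062), and at 44.2 and 43.0 CPM against 19 and 20.7 CPM at 30 min. Peg12, which binds GSK3, was at 6.57 and 7.01 CPM against 4.59 and 3.89 CPM at 0 min, and at 6.41 and 6.31 CPM against 3.01 and 2.71 CPM at 30 min. The genotype effect on Peg12 was not shown to differ between the times (log2 difference −0.47 ± 0.20, adjusted p = 1). Ube3a, read from the maternal copy in neurons and from both copies elsewhere, had a log2 fold change of 0.03 ± 0.074, and Magel2 was too low to test.

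All 4 members of the Dlk1–Meg3 domain on chromosome 12 were lower in dKO iDFs, although Dlk1 is read from the paternal copy and the RNAs from the maternal copy. Dlk1 was at 15.4 and 15.2 CPM in WT and at 5.19 and 4.32 CPM in dKO at 0 min (−1.68 ± 0.12), and at 12.8 and 12.9 CPM against 4.58 and 5.25 CPM at 30 min. Meg3 was at 153 and 186 CPM against 70.0 and 69.7 CPM at 0 min (−1.28 ± 0.15), and at 147 and 190 CPM against 66.4 and 72.3 CPM at 30 min. These values place every dKO library below every WT library. Of all genes, 34.8% were lower in dKO without overlap at 0 min and 33.6% at 30 min. Rian was at 102 and 105 CPM against 35.9 and 30.2 CPM at 0 min (−1.65 ± 0.16), and at 84.3 and 85.8 CPM against 29.6 and 42.0 CPM at 30 min. Mirg was at 4.37 and 7.18 CPM against 2.39 and 2.23 CPM at 0 min (−1.31 ± 0.24), and at 4.23 and 5.37 CPM against 2.39 and 2.54 CPM at 30 min. The call of Mirg at 30 min was lost without WT replicate 2 or without either dKO replicate of that time.

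At Igf2 and H19, which share enhancers and are read from opposite copies, the paternal gene alone was called. Igf2 was at 74.2 and 91.1 CPM in WT and at 27.4 and 28.8 CPM in dKO at 0 min (−1.55 ± 0.12, edgeR adjusted p = 9.4e-05). At 30 min it was at 76.7 and 78.6 CPM against 25.5 and 31.0 CPM. H19 was at 130 and 193 CPM in WT and at 165 and 221 CPM in dKO at 0 min (0.26 ± 0.29, adjusted p = 0.572), and at 127 and 171 CPM against 155 and 196 CPM at 30 min, with overlap between the genotypes. In the Kcnq1 domain Cdkn1c, the inhibitor p57KIP2, was at 119 and 141 CPM against 39.6 and 44.8 CPM at 0 min (−1.63 ± 0.11). At 30 min it was at 115 and 125 CPM against 38.4 and 43.6 CPM. Kcnq1ot1, the paternally read RNA of that domain, had a log2 fold change of −0.08 ± 0.22. It lies antisense within Kcnq1 and cannot be told apart from it without strand.

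Mest was at 313 and 383 CPM in WT and at 96.6 and 96.4 CPM in dKO at 0 min (−1.85 ± 0.092), and at 295 and 318 CPM against 89.9 and 90.9 CPM at 30 min. Its neighbour Copg2 was at −0.02 ± 0.048 on the log2 scale. Plagl1, a zinc-finger transcription factor, was at 245 and 284 CPM against 87.5 and 102 CPM at 0 min (−1.48 ± 0.15), and at 230 and 245 CPM against 85.8 and 110 CPM at 30 min. Zim1, a maternally read zinc-finger gene beside Peg3, was at 4.78 and 5.19 CPM against 2.45 and 3.02 CPM at 0 min, and at 4.40 and 4.81 CPM against 3.01 and 2.96 CPM at 30 min. Its call at 0 min was lost without dKO replicate 1 of that time. Peg3 itself had a log2 fold change of −0.12 ± 0.070 and Usp29 of −0.08 ± 0.20 at 0 min.

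Several abundant members kept close to their WT levels in dKO iDFs. Grb10 was at 642 and 633 CPM in WT and at 664 and 653 CPM in dKO at 0 min (log2 fold change 0.05 ± 0.036). Gnas had a log2 fold change of −0.01 ± 0.054, Igf2r of −0.16 ± 0.047, Impact of −0.23 ± 0.054 and Commd1 of −0.14 ± 0.070, with an adjusted p under 0.05 for Igf2r and Impact. Sgce (0.57 ± 0.062), Sfmbt2 (0.73 ± 0.24) and Trappc9 (0.32 ± 0.062) were higher at an adjusted p under 0.05 but below the fold threshold at 0 min. Zdbf2, at 0 counts in dKO CAFs, was at 3.77 and 3.59 CPM in WT iDFs and at 1.37 and 1.12 CPM in dKO iDFs at 0 min (−1.56 ± 0.83, adjusted p = 0.224). Calcr, Asb4, Magel2, Phlda2, Slc22a18 and Slc22a3 were too low to test in iDFs, and H13, Peg10, Ppp1r9a, Inpp5f, Tssc4, Zrsr1 and Airn had no adjusted p under 0.05 at 0 min.

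Members that fell also host microRNAs. RefSeq places 24 hairpins with 47 mature microRNAs in 8 members, of 1738 mature microRNAs in its mouse table of GRCm38.p6. Mirg holds 14 hairpins, Rian 3, Calcr 2, and Meg3, Mest, Igf2, H19 and Usp29 each 1. In Meg3, miR-1906 (chr12:109544588-109544609) lies apart from miR-770-5p and miR-770-3p (chr12:109563710-109563765). The hairpins counted therefore do not cover every mature microRNA. The libraries were made from poly(A) RNA, so the host transcripts were measured and the microRNAs were not. Shown are mature sequences from hosts with called changes and from H19, with the seed (bases 2 to 8) in capitals.
mmu-miR-335-5p (Mest, chr6:30741314-30741336, + strand): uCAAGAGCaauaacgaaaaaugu
mmu-miR-483-3p (Igf2, chr7:142654932-142654952, − strand): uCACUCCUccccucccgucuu
mmu-miR-675-5p (H19, chr7:142577112-142577133, − strand): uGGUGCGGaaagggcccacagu
mmu-miR-770-3p (Meg3, chr12:109563744-109563765, + strand): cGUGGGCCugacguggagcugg
mmu-miR-370-3p (Rian, chr12:109618305-109618326, + strand): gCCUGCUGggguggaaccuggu
mmu-miR-134-5p (Mirg, chr12:109734145-109734166, + strand): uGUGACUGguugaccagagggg
mmu-miR-453 (Mirg, chr12:109735669-109735692, + strand): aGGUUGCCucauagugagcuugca
mmu-miR-496a-5p (Mirg, chr12:109739132-109739152, + strand): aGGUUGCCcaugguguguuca
The 47 mature microRNAs have 46 distinct seeds, and the shared seed is that of miR-453 and miR-496a-5p. By the annotation, miR-675-5p, miR-770-3p and miR-134-5p lie in an exon of at least 1 transcript of their host, and the other 5 do not.

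Serum for 30 min called 0 of 38 members in WT iDFs, where 1.95% of all genes were called, and 0 of 38 in dKO iDFs, where 3.28% were. At an unadjusted p under 0.05 stood 3 members in WT (19.4% of all genes) and 2 in dKO (23.8% of all genes). DESeq2 called 0 in both. Impact was higher after serum in WT (log2 fold change 0.28 ± 0.054, adjusted p = 0.0189), and Peg12 was lower in dKO (−0.57 ± 0.15, adjusted p = 0.0473), both below the fold threshold. The genotype effect differed between the times for 0 members by edgeR and by DESeq2, with 1 at an unadjusted p under 0.05 (Peg12). Of all genes, 0.0133% were called and 2.42% had such a p.

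Between CAFs and iDFs the genotype effect itself differed for 10 of 41 members tested in a joint fit with sex as a term (24.4%), where 7.13% of all genes were called. The change was lower in CAFs for Zdbf2 (adjusted p = 0.00225) and Sfmbt2 (log2 difference −1.46 ± 0.29). It was lower in iDFs for Nnat (4.73 ± 0.68), Slc38a4 (3.00 ± 0.27), Snrpn (2.69 ± 0.26), Ndn (1.54 ± 0.14), Rian (1.49 ± 0.25), Cdkn1c (1.31 ± 0.17), Meg3 (1.26 ± 0.31) and Airn (0.84 ± 0.19). Called in both cell types were 2 members, Mest and Rasgrf1, which is 2 of the 4 in CAFs and 2 of the 14 in iDFs at 0 min. The difference for Rasgrf1 was 1.83 ± 0.77 (adjusted p = 0.174), so unequal effects were not shown. The CAFs came from both sexes of tumour-bearing mice and the iDFs from male skin in culture, so cell source, culture and library series cannot be told apart.

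Female and male CAFs differed in 13 imprinted genes. This comparison was chosen after the values were seen. With genotype as a term, 10 of 41 members were higher in females and 3 lower (31.7%), where 1.91% of all genes were called, 0.241% higher and 1.67% lower. Those 10 were 26.3% of the 38 genes called higher in females. Mest, Peg3, Usp29 and Igf2 among them are read from the paternal copy, and Zim1, H19, Cdkn1c, Meg3, Rian and Mirg from the maternal copy. The median log2 difference over the members was 0.265 against 0.0147 over all genes.

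Igf2 was at 6.30 and 6.41 CPM in male and 57.4 and 30.2 CPM in female WT CAFs, and at 3.06 and 4.37 CPM in male and 22.6 and 11.1 CPM in female dKO CAFs (log2 difference 2.49 ± 0.32, edgeR adjusted p = 0.0165). H19 was at 16.5 and 20.9 CPM in male and 151 and 106 CPM in female WT CAFs, and at 3.31 and 11.2 CPM in male and 66.4 and 30.9 CPM in female dKO CAFs (2.75 ± 0.39). In each genotype both females were above both males for Igf2 and H19, although the genes are read from opposite copies. The share of all genes separated so by sex was not counted. Meg3 was at 185 and 260 CPM in male and 560 and 658 CPM in female WT CAFs, and at 204 and 312 CPM against 587 and 437 CPM in dKO (1.22 ± 0.20). Peg3 was at 174 and 175 CPM against 334 and 349 CPM in WT, and at 117 and 113 CPM against 422 and 201 CPM in dKO (1.2 ± 0.22). Zim1 was at 45 and 51.2 CPM against 121 and 109 CPM in WT, and at 21.4 and 19.4 CPM against 144 and 58.9 CPM in dKO (1.78 ± 0.32). Cdkn1c was at 15.4 and 14.5 CPM against 31.3 and 26.7 CPM in WT, and at 12.4 and 12.3 CPM against 25.7 and 19.7 CPM in dKO (0.91 ± 0.10). Lower in females were Rasgrf1 (−1.78 ± 0.29), Phlda2 (−1.58 ± 0.32) and Sfmbt2 (−0.90 ± 0.17).

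**Figure D4:**
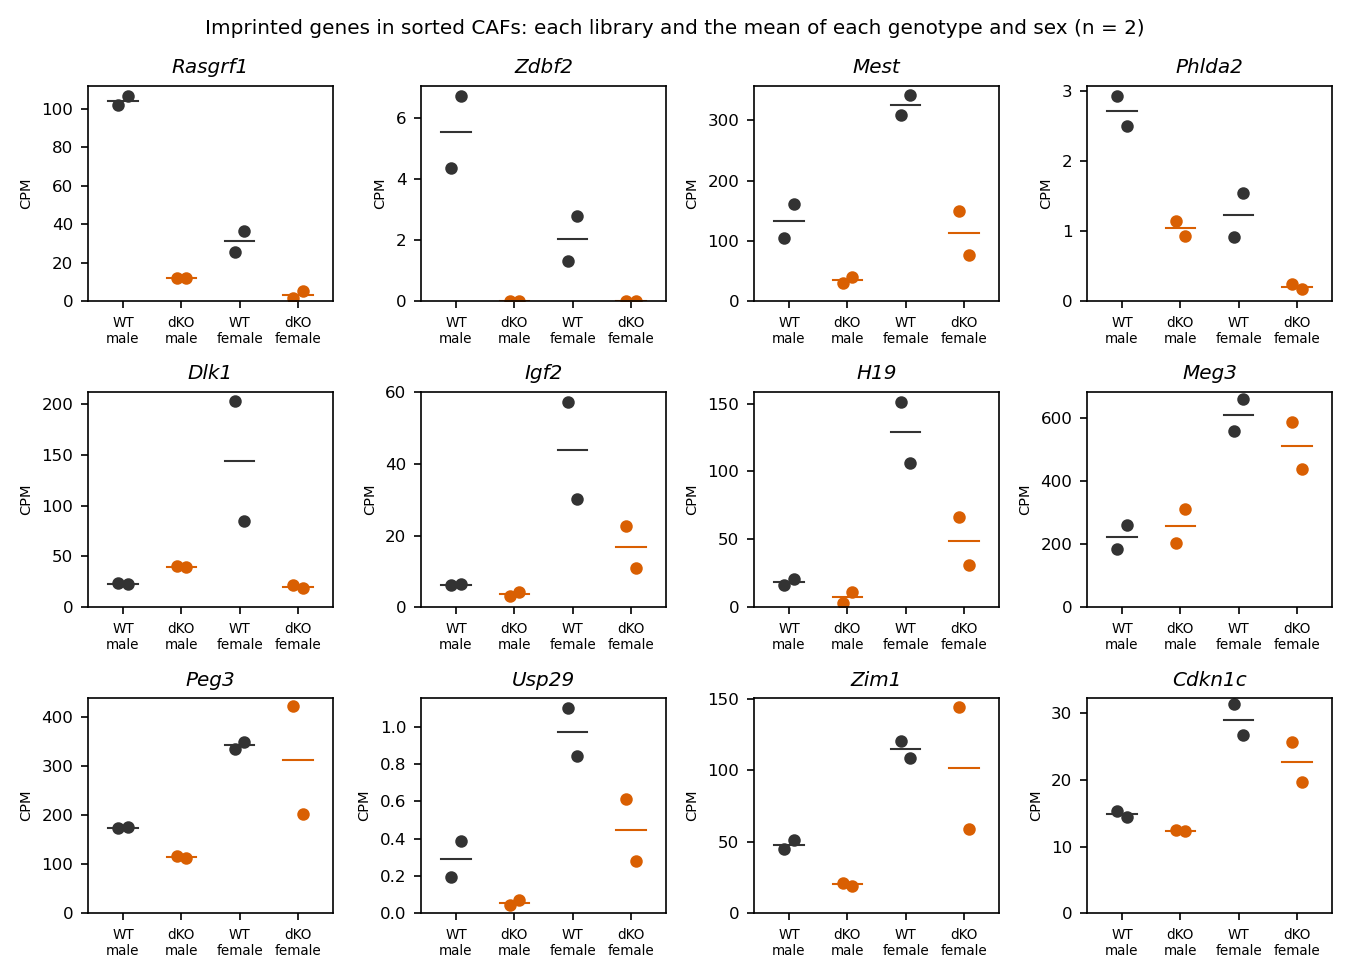
Level of 12 imprinted genes in the 8 CAF libraries by sex and genotype, in CPM. Points are libraries and lines are means of 2. The genes are the 4 called for genotype and 8 chosen after their values were seen. Igf2 and H19 stand higher in both females than in both males of each genotype, Rasgrf1 stands lower in females, and Dlk1 is highest in the WT females. How many of all genes separate the sexes in this way was not counted.

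The calls by sex depended on the libraries. Leaving out each CAF library in turn gave 0 to 10 called members: 0 without WT replicate 2, 2 without WT replicate 1 or WT replicate 3, and 3 without WT replicate 4 or dKO replicate 1. There were 6 without dKO replicate 2 and 8 without dKO replicate 3. Within a single genotype, with 2 libraries of each sex, 0 members were called by edgeR (19 higher and 5 lower in WT, 15 higher and 6 lower in dKO, at an unadjusted p under 0.05), and 0.0598% and 0.239% of all genes were. Each sex of a genotype was sorted from separate mice, whose litter, cage and sort day are not given, so sex cannot be told apart from these. Endothelial markers summed to 196 to 399 CPM in females and 139 to 203 CPM in males, and adipocyte markers to 34.7 to 114 CPM and 11.1 to 41 CPM. Their part in the results was not tested. In bulk tumours 0 of 42 members were called by sex (1 at an unadjusted p under 0.05, 0.0332% of all genes called), and in CD8+ T cells 0 of 23 (2 at an unadjusted p under 0.05, 0.00669% of all genes called). Only edgeR was run there.

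Dlk1 had opposite values in the sexes. It was at 23.9 and 22.6 CPM in male and 203 and 84.4 CPM in female WT CAFs, and at 40.5 and 39.3 CPM in male and 22.0 and 18.9 CPM in female dKO CAFs. In females it was lower in dKO (log2 fold change −2.81 ± 0.39, edgeR adjusted p = 0.0219). In males both dKO libraries were above both WT libraries, without a call (0.78, adjusted p = 0.38). How many of all genes were placed so in males was not counted. The difference between the sexes was −3.59 ± 0.53 and did not pass over all genes (adjusted p = 0.523). No member was called for such a difference (3 at an unadjusted p under 0.05), and 0% of all genes were.

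Gnas has several first exons with different imprinting, which the total over the gene does not separate. The forms starting upstream at the Nesp exon, which are read from the maternal copy, were at 21.9 and 31.4 TPM in male and 130 and 128 TPM in female WT CAFs. In dKO CAFs they were at 7.72 and 10.5 TPM in males and at 47.8 and 28.5 TPM in females. In iDFs they were at 3.78 and 5.39 TPM in WT and at 0.456 and 0.725 TPM in dKO at 0 min, and at 1.96 and 2.62 TPM against 0.119 and 0.0498 TPM at 30 min. Each dKO library was thus below the WT libraries of its sex or time, a description without a test. In iDFs 34.8% of all genes were lower in dKO without overlap at 0 min and 33.6% at 30 min. For CAFs split by sex such a share was not counted. The forms starting at the Gs-alpha exon made up 88.1% of Gnas in WT CAFs and 92.7% in dKO CAFs, at 893 to 1069 TPM and 882 to 1113 TPM. In WT bulk tumours the Nesp forms ran from 2.13 to 54.7 TPM (median 3.99) and in dKO from 2.08 to 13.8 TPM (median 4.32). The exon 1A forms, which start just upstream of the Gs-alpha exon, were at 4.25 and 4.27 TPM in WT iDFs and at 68.5 and 44.5 TPM in dKO at 0 min, also without a test. At 30 min they were at 72.8 and 37.7 TPM in WT and at 89.5 and 50.7 TPM in dKO, so the genotypes overlapped after serum. In WT bulk tumours the exon 1A forms made up 62% of Gnas and the Gs-alpha forms 21.6%. In CAFs they were at 9.18 to 15.4 TPM in WT and 8.19 to 15.7 TPM in dKO. The forms share later exons, and Salmon splits such reads by estimate.

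**Figure D5:**
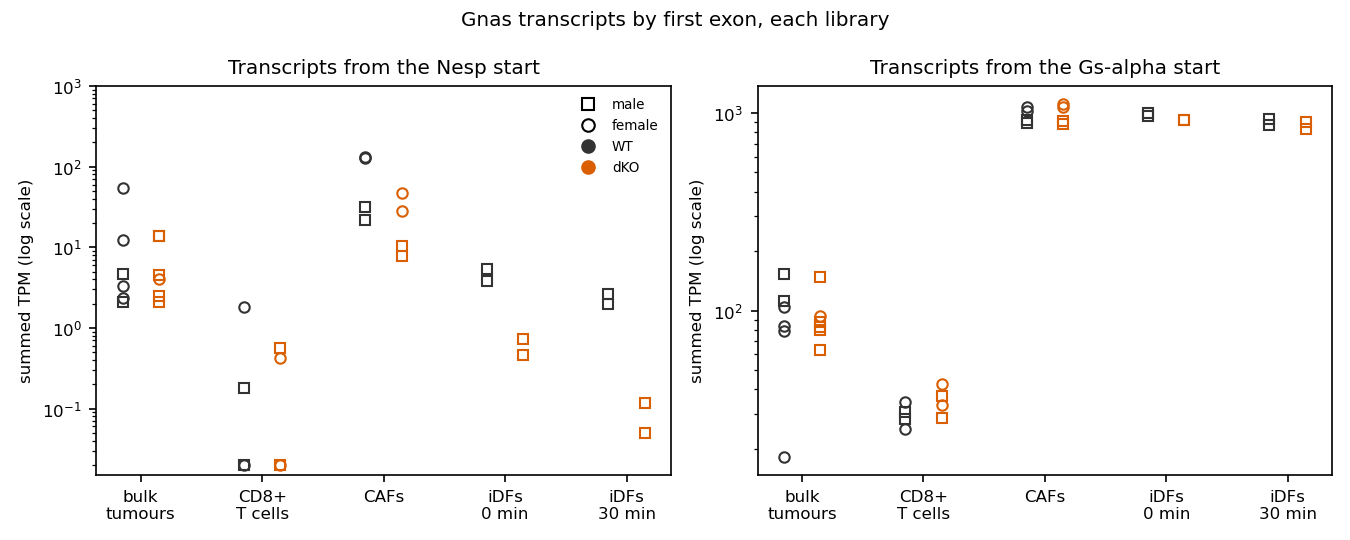
Level of Gnas transcripts from the Nesp start (left) and the Gs-alpha start (right) in each library, in TPM on a log axis. Squares are male and circles female libraries, black is WT and orange dKO, and values under 0.02 TPM are drawn at 0.02. The Nesp forms lie lower in dKO than in WT within each sex of the CAFs and at each time of the iDFs. No test was run on them, and the share of all transcripts that do so was not counted. In CAFs they overlap across the sexes. The exon 1A forms are not drawn.

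Genes around the imprinted set were counted from 3 lists. For these counts too the shares of all genes called were 5.48% in CAFs (4.03% lower), 9.04% in iDFs at 0 min and 8.96% at 30 min. Among 22 regulators of imprinting (DNA methyltransferases, zinc-finger guards of the marks and others), 0 of 20 tested were called in CAFs by edgeR and 0 of 19 in iDFs at either time. At an unadjusted p under 0.05 stood 8 in CAFs, 10 in iDFs at 0 min and 8 at 30 min, where 26%, 41.9% and 42.6% of all genes did. Of 17 genes of the IGF2 pathway, 4 of 15 tested were lower in dKO CAFs, among them Igfbp3 (−1.70 ± 0.12), Igf2bp3 (−1.51 ± 0.31) and Htra3 (−0.76 ± 0.16). In iDFs at 0 min 4 were higher and 3 lower of 16, with Igfbp4 at 1.45 ± 0.059, Irs2 at 0.89 ± 0.066 and Htra3 at −3.11 ± 0.17. At 30 min it was again 4 higher and 3 lower. Igfbp3 and Igfbp4 encode binding proteins of the growth factors, Irs2 a substrate of their receptor and Htra3 a serine protease. Of 36 further imprinted genes, 3 of 28 tested were lower in dKO CAFs (Klf14, −2.44 ± 0.37, Gatm, −1.46 ± 0.31, and Cobl, −0.81 ± 0.20). In iDFs at 0 min 1 was higher and 5 lower of 24, with Gatm, which makes a creatine precursor, at 3.02 ± 0.29, Phactr2 at −1.02 ± 0.12 and Rtl1, in the Dlk1–Meg3 domain, at −4.33 ± 0.52. Rtl1 was low, with an average log2 CPM of −1.04 over the iDF libraries, and was not called at 30 min. The calls at 30 min included Gatm (2.925 ± 0.29), Phactr2 (−1.12 ± 0.12) and Nap1l5 (−3.105 ± 0.46). Bulk tumours and CD8+ T cells had 0 called in all 3 lists, where 0.0442% and 0.495% of all genes were called. By sex in CAFs, Klf14 of the 28 further imprinted genes was higher in females (1.71 ± 0.36), and Igfbp3 (−1.43 ± 0.12) and Igf2bp3 (−1.48 ± 0.31) of the 15 IGF2 pathway genes were lower, named after their values were seen.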

How the data were processed

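Groups, sex, batch and serum time came from GEO's labels. The authors quantified 75-base single reads with Salmon 1.2.1 on Gencode transcripts (GRCm38.p6), and no source used here names the strand setting. Per library, the authors deposited estimated counts per transcript without normalization, TPM scaled by transcript length and library total, and effective lengths, which served for a length offset. The tumour libraries were made with a poly(A) and directional kit, the CAF and iDF libraries with a later version of it, and the CD8+ T cell libraries from 5000 cells with a low-input kit.

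Gencode mouse release 21 of GRCm38 assigned 99.15% of 140992 transcripts to genes, over which the estimated counts were added up and rounded (17526681 to 85432438 in a library). edgeR 4.0.16 in R 4.3.3 was used for all tests (minimum count 10 and total 15 in filterByExpr, TMM factors, robust quasi-likelihood), 2-sided, with Benjamini-Hochberg adjustment over all genes tested: 18097 in bulk tumours, 14944 in CD8+ T cells, 15786 in CAFs, 15047 in iDFs and 21415 over WT sources. Terms were batch, sex and genotype (bulk tumours), sex and genotype (CD8+ T cells, CAFs), 4 group means (iDFs) and source and sex (WT libraries). Calls needed an adjusted p under 0.05 and a log2 fold change beyond 0.75 in either direction. The SE is the fold change over the root of the F statistic. A group at 0 was compared with a floor of 3 counts per library, which covers counting error only. Fits were tested on simulated data. DESeq2 1.42.0, RLE factors, no filter, a length offset, other samples or terms in a fit and each library left out were tried as alternatives.

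The members and lists were chosen with earlier results of these data known, and the comparisons by sex after the values were seen. Every library value is given for members called for genotype, in the libraries that called them, and for the 5 members with the highest mean WT TPM in a source, in that source (lowest, median and highest in bulk tumours). From the other lists at most 3 called genes per comparison are named, by smallest p. Figures were drawn with matplotlib 3.10.9. Part of the tumour genotype, shared by all tumour-bearing mice, is not reported here.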

Additional observations from a re-analysis of the deposited data

Results flagged for a closer look

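Among 62 groups of 4 to 6 libraries examined, 2 had a library apart from the rest, where chance gives about 1 in 20 groups. Rasgrf1 was at 14.8 CPM in replicate 5 of the WT bulk tumours, with the nearest at 5.29 CPM and the lowest at 3.14 CPM. Commd1 was at 19.5 CPM in replicate 2 of the dKO bulk tumours, with the nearest at 26.0 CPM and the highest at 29.0 CPM.

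For 10 members the log2 genotype effect in CAFs differed from that in iDFs at 0 min by the test of the difference in edgeR. The difference, CAFs minus iDFs, was 4.73 for Nnat (adjusted p = 0.00225), 3.00 for Slc38a4 (0.00015), 2.69 for Snrpn (0.00018), 1.54 for Ndn (0.00015) and 1.49 for Rian (0.00501). It was 1.31 for Cdkn1c (0.000905), 1.26 for Meg3 (0.0294), 0.84 for Airn (0.0217) and −1.46 for Sfmbt2 (0.0106). For Zdbf2 the fitted difference of −8.19 (0.00225) rests on 0 counts in all dKO CAF libraries and is no measure of size.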

How the results depend on the processing

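For the called members (131 results under their alternatives), 2203 of 2374 values kept their direction and call, 171 lost the call and 0 changed direction. These results pool the comparisons among WT sources, by sex and by genotype, so the total does not describe the genotype calls alone. For members not called in bulk tumours, 7 of 26 log2 ratios taken within a batch had the other sign (Gnas, Meg3, Commd1, Zdbf2 and Rasgrf1), and 1 of the 26, Gnas at 0.15 in batch 2, moved by more than the spread between libraries. The ratios of batch 3 cannot tell genotype from sex, as its WT tumours were all female and its dKO tumours all male. DESeq2 called 1 member in bulk tumours, 1 in CD8+ T cells and 7 in CAFs. With no filter on low counts, 6 were called in CD8+ T cells and 6 between female and male CAFs. With no threshold on the fold change, 8 were called in CAFs, 1 for serum in WT iDFs and 1 for serum in dKO iDFs. Without sex in the model, 1 was called in CAFs and 5 differed in genotype effect between CAFs and iDFs. At 5 TPM in place of 1 TPM, 12 members were counted in WT CD8+ T cells. The cause of these differences was not tested.

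Leaving out each library in turn gave 0 to 10 calls between female and male CAFs, 4 to 6 for genotype in CAFs, 14 to 15 and 13 to 14 in iDFs at 0 and 30 min, and 7 to 12 for CAFs against iDFs. It gave 0 to 1 for serum in dKO iDFs and 0 to 1 for the interaction, the single call in each being Zdbf2 without dKO replicate 1 at 30 min. The iDF replicate numbers were not shown to pair libraries (correlations of 0.0728 to 0.267). With the replicate number as a block, 14 members were called at 0 min and 14 at 30 min, and 0 for serum in either genotype and for the interaction, so no count changed. Low counts limit several members, such as Zdbf2 and Rasgrf1 in dKO iDFs and Phlda2 in dKO CAFs.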
